A study of Arabidopsis thaliana with 12 samples.

Results

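Seedlings kept in 10 µM cycloheximide (CHX) were compared with seedlings kept in 0 µM CHX, over all genes measured. The comparison holds 6 of the 12 libraries of the series, 3 labelled 10 µM and 3 labelled 0 µM, and the other 6 were labelled 1 or 100 µM. All were whole wild-type Arabidopsis thaliana seedlings of the ecotype Col-0, 2 weeks old, grown on agar plates of half-strength medium with sucrose and moved to water before the treatment. Both groups were then held for 2 h under light of 30 µE and differed, by their labels, only in the CHX dose. Bulk MARS-seq, which reads transcripts near their 3′ ends, gave whole-number read counts for 12905 genes. Whether replicate seedlings were grown and treated on plates of their own is not given in the labels, and p-values therefore cover only the variation among these libraries.

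CHX binds cytosolic ribosomes and stops the elongation of proteins, while the ribosomes of plastids and mitochondria are not its target. Many plant genes of defence, wounding and auxin responses are held low by repressor proteins that are made and destroyed quickly, or make transcripts that decay fast. Such transcripts are known to build up when translation is blocked, a behaviour called superinduction, and CHX is used for that reason to find immediate early genes.

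At 10 against 0 µM, 2890 genes rose and 1561 fell, which is 22.4% and 12.1% of all genes tested. Calls needed a change of 2-fold or more and an adjusted p under 0.05 (edgeR's quasi-likelihood test, Benjamini-Hochberg method), and the verbs "rose" and "fell" are used only for called genes. The rises were larger than the falls. Their median log2 change was 2.89, against −1.48 for genes that fell and 0.02 over all genes. A change of over 8-fold was found for 1379 genes that rose and 75 that fell, and one of over 64-fold for 291 and 5. The 3 libraries at 10 µM did not overlap the 3 at 0 µM for 2847 of the rises and 1485 of the falls, while 30% of all genes lay wholly higher and 24.1% wholly lower at 10 µM. Genes that rose took 68.03, 63.84 and 66.86% of all counts in the 10 µM libraries and 10.02, 9.596 and 11.81% in the 0 µM libraries. Genes that fell took 5.718, 7.321 and 6.012% at 10 µM and 31.42, 31.83 and 30.96% at 0 µM.

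The balance of rises and falls depended on how libraries were scaled. Levels are given in CPM, the counts per 1000000 scaled with TMM factors, which take most genes as unchanged, and 64.93% of the called genes rose. With scaling by total counts alone the median of all genes moved to −0.82 and 1879 genes rose and 4935 fell, a share of 27.6% for the rises. With scaling to 10 reference genes that median was 0.21, and 3181 genes rose and 1110 fell, a share of 74.1%. Total counts per library ran from 2823964 to 3724564 at 10 µM and from 1073063 to 2036594 at 0 µM, so the groups also differed in depth. After all libraries were thinned to the smallest total, 2301 genes rose and 1281 fell. Intervals and floors given below cover counting error only and leave out the spread between libraries. Copies of a molecule made by PCR were not removed, so the intervals may be too narrow even for counting error.

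**Figure D1:**
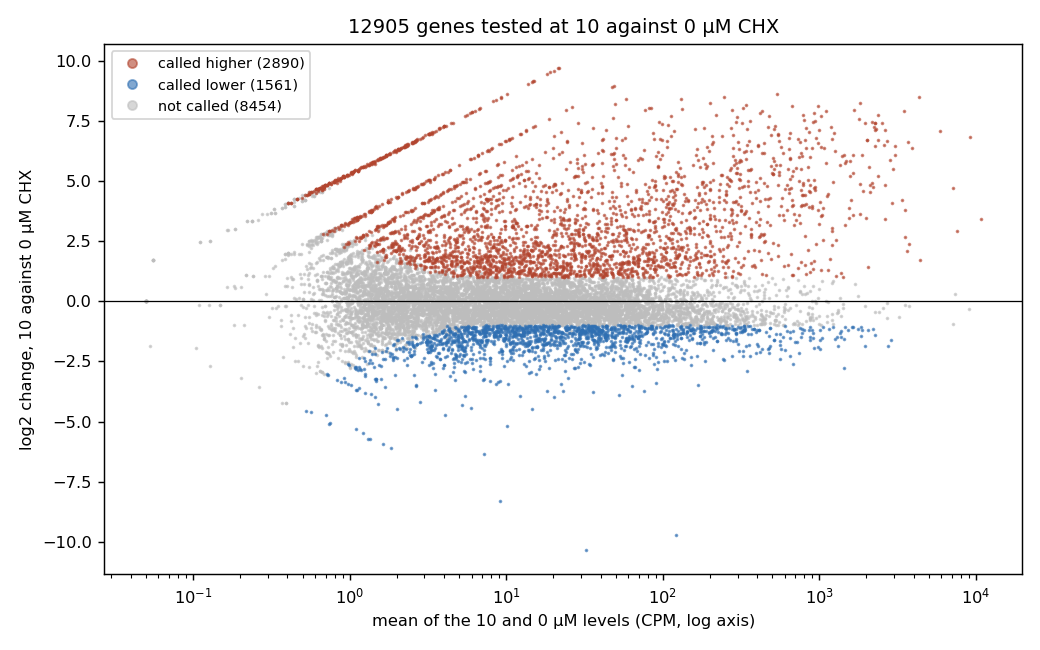
Each point is 1 of 12905 genes, with the mean of its 10 and 0 µM levels (CPM, log axis) on the x axis and its log2 change at 10 against 0 µM on the y axis, and colours mark the 2890 genes called higher, the 1561 called lower and the rest. Rises of over 8 on the log2 scale appear at low and high levels, whereas few falls pass −4, and the straight streaks at the left are genes with few or no counts in 1 group.

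Among called genes with over 3 counts in each group, libraries that did not overlap and at least 10 CPM in the higher group, the largest rises were in little-described genes, transcription factors, a receptor kinase and a calcium sensor. AT1G06137, which encodes an uncharacterized protein, was at 1123, 899 and 1192 CPM in the 10 µM libraries and at 3.18, 2.51 and 2.24 CPM in the 0 µM libraries. The libraries of the groups lay far apart, and the log2 change was 8.60 ± 0.38 (SE, edgeR, adjusted p = 4.4e-14). CCR4, a receptor kinase related to CRINKLY4, was at 523, 478 and 465 CPM at 10 µM and at 0.636, 1.25 and 2.24 CPM at 0 µM. Its log2 change was 8.50 ± 0.35 (SE, edgeR, adjusted p = 1.7e-14), and 9.13 without 0 µM replicate 3. ERF13, a transcription factor of the AP2/ERF family, reached 9911, 7583 and 8507 CPM at 10 µM and had 22.2, 25.7 and 25.0 CPM at 0 µM. No ERF13 value of either group came near the other, with a log2 change of 8.48 ± 0.30 (SE, edgeR, adjusted p = 3.9e-15). NAC090, a NAC domain transcription factor, was at 344, 209 and 227 CPM at 10 µM and under 1 CPM in each 0 µM library (0.953, 0.627 and 0.447 CPM), a log2 change of 8.41 ± 0.37 (SE, edgeR, adjusted p = 4.1e-14).

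The next 8 rises by size had log2 changes between 8.02 and 8.25. They were AT4G14450 and AT1G06135, both uncharacterized, the calmodulin-like calcium sensor CML37, the AP2/ERF factors RRTF1, TDR1 and AT5G21960, AT1G51915, named for a likeness to cryptdin, and AT2G32130, a protein of unknown function. CML37 was at 3933, 3294 and 3599.8 CPM at 10 µM and at 11.4, 8.15 and 15.7 CPM at 0 µM. RRTF1, a redox-responsive factor, was at 655, 600.2 and 763 CPM at 10 µM and at 1.91, 1.25 and 3.58 CPM at 0 µM. The choice required groups that do not overlap. Where few counts were found at 0 µM the size of the change moved with single libraries, to 9.49 for AT4G14450 without 0 µM replicate 1, and for AT1G51915 to 7.29 without 0 µM replicate 1 and 8.66 without 0 µM replicate 2.

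The 250 bases before the start of the 4 genes with the largest rises are shown, because short motifs of known regulators can be read in them. The sequences follow the strand of the gene and were read from the assembly TAIR10.1, with gene starts from RefSeq, at chr1:1863841-1864090 (minus strand) for AT1G06137, chr5:19381191-19381440 (minus) for CCR4, chr2:18494965-18495214 (plus) for ERF13 and chr5:7410103-7410352 (minus) for NAC090. Capitals mark a W-box (TTGACC or TTGACT), the element bound by WRKY factors, or the rapid stress response element CGCGTT, on either strand.
AT1G06137: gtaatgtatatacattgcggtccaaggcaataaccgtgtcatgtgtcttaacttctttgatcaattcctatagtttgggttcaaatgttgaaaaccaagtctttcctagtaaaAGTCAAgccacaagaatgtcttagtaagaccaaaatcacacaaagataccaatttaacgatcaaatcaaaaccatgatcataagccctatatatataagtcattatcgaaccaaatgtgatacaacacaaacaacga
CCR4: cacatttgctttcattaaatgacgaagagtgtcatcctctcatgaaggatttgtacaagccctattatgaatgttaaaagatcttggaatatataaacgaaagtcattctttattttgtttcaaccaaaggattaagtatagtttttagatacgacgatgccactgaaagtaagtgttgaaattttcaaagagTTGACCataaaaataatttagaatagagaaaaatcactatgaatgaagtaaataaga
ERF13: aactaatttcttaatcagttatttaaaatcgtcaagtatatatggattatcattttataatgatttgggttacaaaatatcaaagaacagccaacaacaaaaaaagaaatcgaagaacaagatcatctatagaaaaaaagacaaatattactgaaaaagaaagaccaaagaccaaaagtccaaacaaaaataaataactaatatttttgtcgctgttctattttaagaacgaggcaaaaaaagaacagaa
NAC090: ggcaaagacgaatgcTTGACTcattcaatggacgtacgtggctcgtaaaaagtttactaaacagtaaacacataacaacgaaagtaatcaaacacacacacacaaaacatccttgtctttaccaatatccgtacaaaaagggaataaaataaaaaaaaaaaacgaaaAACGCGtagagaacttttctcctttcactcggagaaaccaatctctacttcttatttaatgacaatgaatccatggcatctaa

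AT1G06137 held a W-box that starts 137 bases before the gene, CCR4 held a W-box at 57 bases and NAC090 held a W-box at 235 bases and a rapid stress response element at 83 bases. No letters of these motifs, of the GCC box GCCGCC bound by ERF factors or of the G-box CACGTG were in the window of ERF13. Among the other 8 large rises, AT1G06135 had 4 W-boxes, AT4G14450 had 2, AT1G51915 and AT2G32130 had 1 each, and TDR1 had 1 W-box and 2 G-boxes. RRTF1 had 1 G-box and no W-box, and CML37 and AT5G21960 held none of the 4 motifs. Over all genes with a promoter, 41.7% of the 2890 genes that rose held a W-box, against 21.8% of 1556 that fell and 29.6% of 12830 tested. The rapid stress response element was in 6.19% of promoters of genes that rose, 1.86% of those that fell and 3.06% of all. The G-box (8.48, 7.46 and 7.44%) and the GCC box (2.15, 1.74 and 1.96%) differed less between genes that rose, genes that fell and all genes. These shares describe letters in a window, were not tested and do not show binding.

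**Figure D2:**
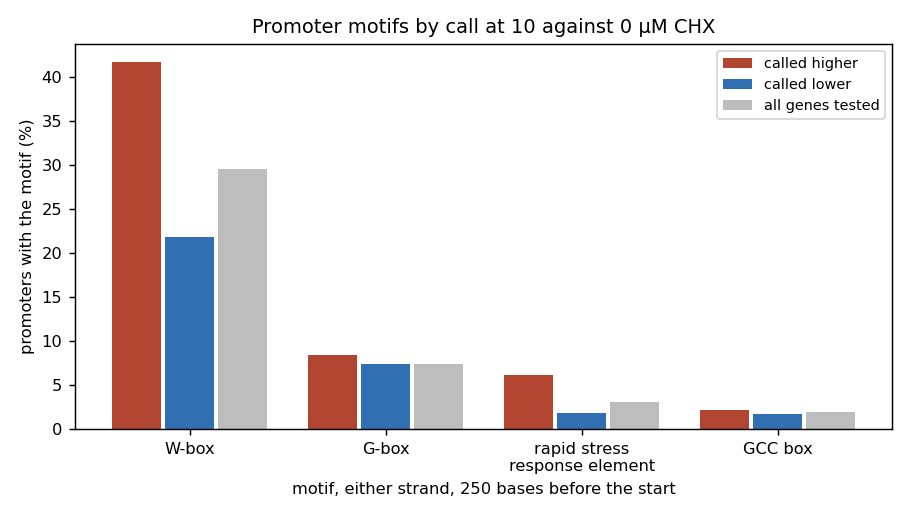
Bars give the percent of promoters (250 bases before the start, either strand) that hold each motif among genes called higher, genes called lower and all genes tested at 10 against 0 µM. The W-box stands at 41.7, 21.8 and 29.6% and the rapid stress response element at 6.19, 1.86 and 3.06%, while the G-box and GCC box bars are of nearly equal height.

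Some genes were so rare without CHX that a fitted fold has little meaning. Of the genes that rose, 593 had 3 counts or fewer over the 0 µM libraries together and 259 had 0, where 3 counts correspond to 0.430 CPM. The most abundant of them at 10 µM was AT4G16820, a lipase-like hydrolase, with 966 counts at 10 µM and 2 at 0 µM, a ratio of 406 with a 95% counting interval of 112 to 3354. AT3G12910, a NAC domain factor, had 808 counts and 1 count (ratio 678.5, interval 121 to 26830), and ESE1, an AP2/ERF factor, had 773 and 1 (ratio 649, interval 116 to 25670). AT2G26380, a leucine-rich repeat protein, had 822 and 2 counts (ratio 345, interval 95.2 to 2855). GH3.1, which joins auxin to amino acids, had 779 counts at 10 µM and 3 at 0 µM, all 3 in replicate 1, a ratio of 218 with an interval of 74.3 to 1060. Of the genes that fell, 64 had 3 counts or fewer over the 10 µM libraries.

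By the same conditions, the largest falls included genes of cell walls, root barriers and growth. EXT11, a cell wall extensin, was at 1.33, 0 and 0 CPM at 10 µM and at 15.6, 33.2 and 10.7 CPM at 0 µM. The log2 change was −5.19 ± 0.73 (SE, edgeR, adjusted p = 3.0e-06), though it was −8.49 without 10 µM replicate 1 and −4.60 without 10 µM replicate 2. AT5G20820, a SAUR-like gene of the auxin-responsive family, was at 1.99, 0.990 and 0.442 CPM at 10 µM and at 24.5, 25.1 and 34.9 CPM at 0 µM. Its log2 change was −4.50 ± 0.44 (SE, edgeR, adjusted p = 1.5e-08) and −5.13 without 10 µM replicate 1. ATCAD4, a cinnamyl alcohol dehydrogenase of lignin synthesis, was at 6.30, 8.25 and 4.86 CPM at 10 µM and at 64.2, 89.6 and 139.5 CPM at 0 µM, a log2 change of −3.88 ± 0.32 (SE, edgeR, adjusted p = 1.1e-09). AT3G25190, a transporter of the vacuolar iron transporter family, was steady within each group, at 2.32, 2.64 and 2.65 CPM at 10 µM and at 33.0, 34.5 and 34.0 CPM at 0 µM.

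The other large falls had log2 changes between −4.43 and −3.71. They were AT3G24020, a dirigent-like protein, AT2G15960, a small stress-induced protein, the signalling peptide CLE2, the Casparian strip protein CASP2, the lipid-transfer protein EDA4, the glycine-rich protein AT4G30450, LURP1, which is known for its role in defence against a water mould, and the F-box protein AT1G73120. They too were chosen among genes whose groups do not overlap. Single libraries moved the estimate for AT2G15960 (−3.66 without 0 µM replicate 1), CLE2 (−5.55 without 10 µM replicate 1 and −3.35 without 10 µM replicate 2), CASP2 (−3.34 without 10 µM replicate 1, −4.74 without 10 µM replicate 3) and LURP1 (−4.64 without 10 µM replicate 2).

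**Figure D3:**
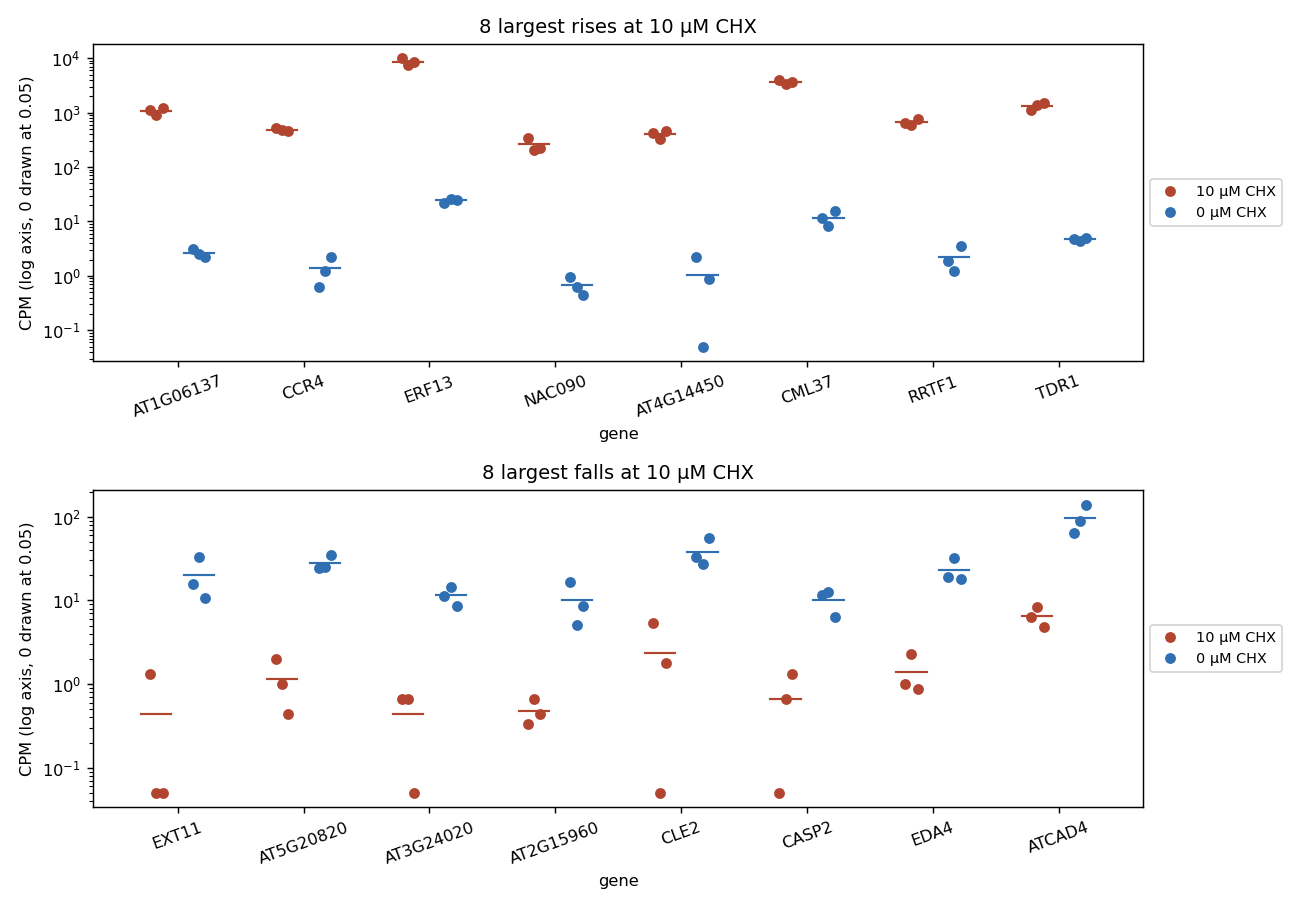
Points are the levels of the 3 libraries per dose (CPM, log axis, 0 drawn at 0.05) for the 8 largest rises (upper panel) and the 8 largest falls (lower panel), 10 µM left of 0 µM for each gene, and lines are the means. The 16 genes were chosen among those whose groups do not overlap, with ERF13 at 7583 to 9911 CPM against 22.2 to 25.7 CPM and EXT11 at 0 to 1.33 CPM against 10.7 to 33.2 CPM.

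Transcription factors of stress-responsive families rose widely. Of 102 AP2/ERF factors, 59 rose and 8 fell, with a median log2 change of 2.04. AT5G51190, an ERF, was at 4925, 4925 and 4392 CPM at 10 µM and at 19.7, 23.8 and 22.8 CPM at 0 µM, a log2 change of 7.75 ± 0.23 (SE, edgeR, adjusted p = 1.5e-15). EBP, a factor of the group that is degraded by the oxygen-dependent N-degron pathway, fell, at 595, 606 and 534 CPM at 10 µM and at 2071, 1982 and 2152 CPM at 0 µM. RAP2.1, ERF73 and ERF9 were also among the 8 falls, with log2 changes of −1.49, −1.14 and −1.45. ERF73 was no longer past 2-fold when scaled to reference genes (−0.94).

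Of 46 WRKY factors, the main binders of the W-box, 32 rose and WRKY65 alone fell, with a median of 2.88. WRKY33, which controls camalexin synthesis, was at 6506, 4828 and 6744 CPM at 10 µM and at 59.1, 63.9 and 80.5 CPM at 0 µM. WRKY40, a repressor of defence genes, was at 4859, 3836 and 4952 CPM at 10 µM and at 29.2, 21.3 and 43.8 CPM at 0 µM. WRKY53, a senescence factor, and WRKY55 had log2 changes of 6.56 ± 0.24 and 7.50 ± 0.33 (SE). WRKY65 went the other way, at 38.5, 36.0 and 30.0 CPM at 10 µM and at 83.6, 103 and 89.4 CPM at 0 µM, a log2 change of −1.39 ± 0.19 (SE, edgeR, adjusted p = 2.2e-06). The count of falls was 3 without 10 µM replicate 2, and 2 with 0 µM replicate 1 or 2 or the third 10 µM library left out. Proteins with a VQ motif, many of which bind WRKY factors, rose in 19 of 24 cases with a median of 3.88, among them SIB1 at 1394, 1212 and 1208 CPM at 10 µM and at 11.1, 22.6 and 28.6 CPM at 0 µM.

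The ZAT and AZF repressors, zinc finger proteins that carry an EAR repression motif, showed the largest shift of any factor family described here, with 11 of 13 higher, 1 lower and a median of 5.38. STZ was at 20034, 16665 and 17693 CPM at 10 µM and at 139.8, 148 and 198 CPM at 0 µM. RHL41, also known as ZAT12, was at 5192, 5324 and 5595 CPM at 10 µM and at 46.7, 47.0 and 64.4 CPM at 0 µM. The 10 µM values of both genes lay far above every 0 µM value. AT2G28200 was the member that fell, with a log2 change of −1.81. NAC factors rose in 20 and fell in 3 of 49 cases with a median of 0.98, and ATAF2, a repressor of defence genes, was at 4615, 5153 and 5372 CPM at 10 µM and at 151, 137 and 237 CPM at 0 µM. Among 39 R2R3-MYB factors, 19 rose and 2 fell with a median of 1.61 (1.29 when genes without counts at 0 µM were set to their bound), with MYB77 at a log2 change of 5.06 ± 0.21 (SE) and MYB51, a regulator of indole glucosinolates, at 4.24 ± 0.24 (SE). MYB28, a regulator of aliphatic glucosinolates, fell, with a log2 change of −2.20 ± 0.36 (SE, edgeR, adjusted p = 2.8e-05), and MYB13 was the other fall, at 1 count over the 10 µM libraries and 16 over the 0 µM libraries. By total counts 17 AP2/ERF, 5 WRKY, 9 NAC and 7 R2R3-MYB factors fell.

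Genes that act on the mRNA itself were among the rises. Of 12 CCCH zinc finger proteins and CAF1 deadenylases, 6 rose and 2 fell. SZF1 was at 4910.4, 4599 and 4612 CPM at 10 µM and at 41.3, 45.1 and 47.9 CPM at 0 µM, and CZF1 had a log2 change of 5.57 ± 0.24 (SE). CAF1a and CAF1b, which shorten poly(A) tails, changed by 6.04 ± 0.23 and 5.49 ± 0.24 (SE) on the log2 scale. The 2 falls were OZF2 at −1.56 and AT5G44260 at −1.08, and the second was under 2-fold without 0 µM replicate 1 (−0.80) and without 10 µM replicate 1 (−0.86). Of 14 genes of nonsense-mediated decay, which is coupled to translation, and of its known targets, 4 rose and 3 fell. These shares of 28.6% and 21.4% stand beside 22.4% and 12.1% over all genes, and by total counts 1 rose and 5 fell. UPF3, a decay factor, had a log2 change of 1.39, and the release factor gene ERF1-1 had 1.33, each of which was under 2-fold by total counts (0.53 and 0.48). AT4G39260, GRP7 and SR34, genes of RNA-binding proteins whose spliced forms are subject to this decay, fell by 1.71, 1.06 and 1.14 on the log2 scale, and without 10 µM replicate 1 only 1 of the 3 was still called.

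**Figure D4:**
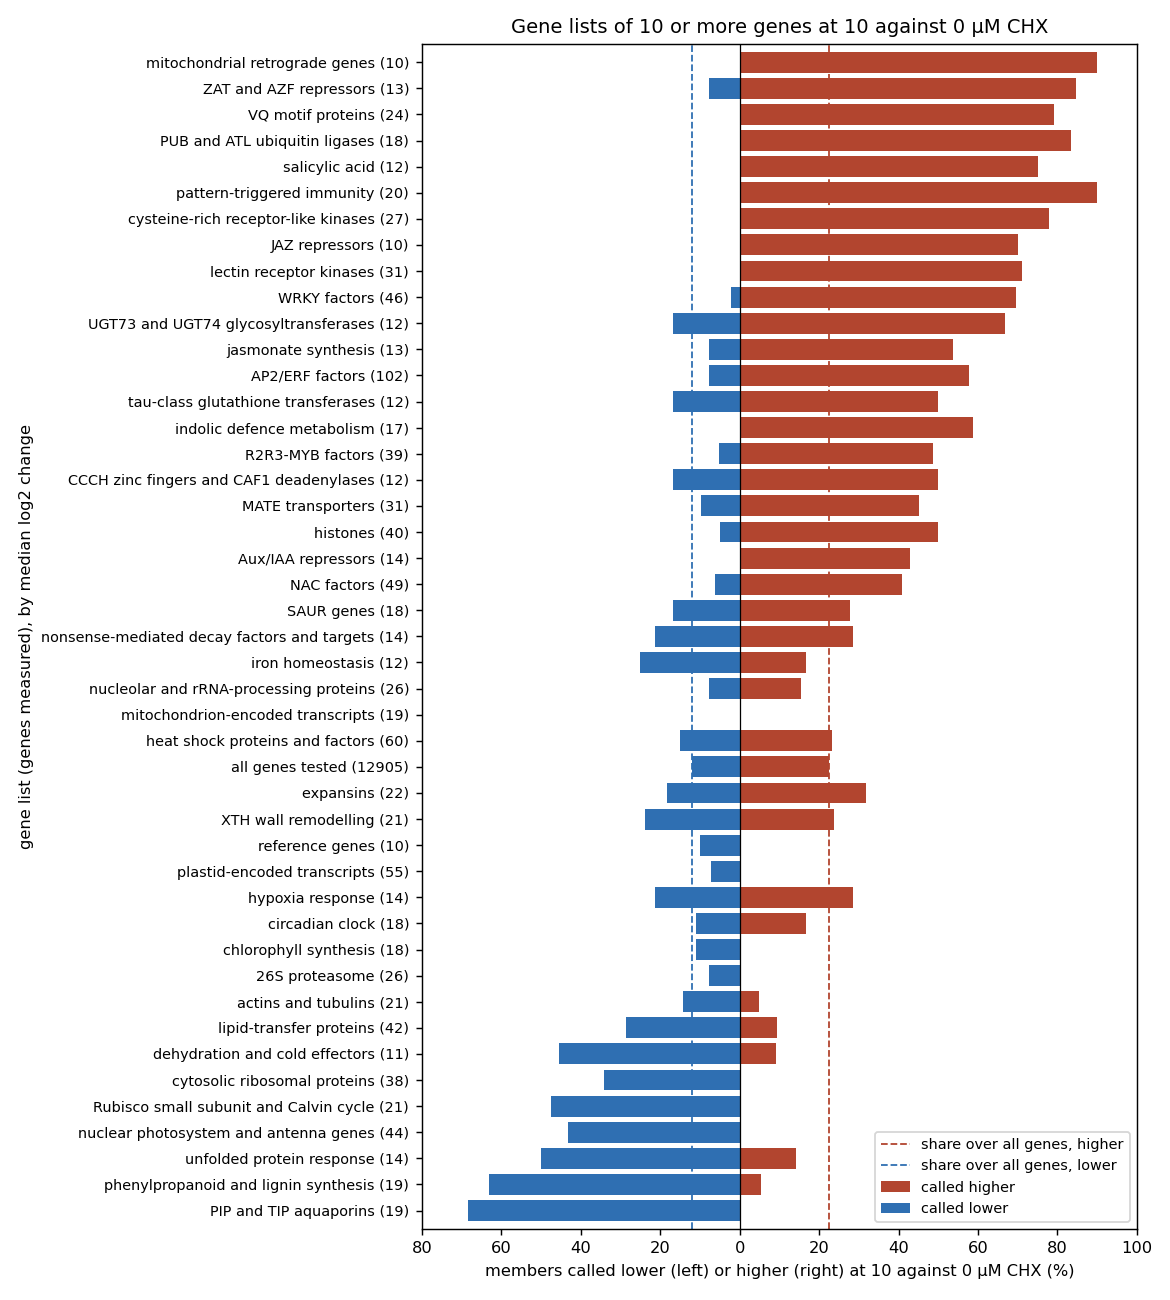
Bars give the percent of measured members called higher (right) and lower (left) at 10 against 0 µM for each gene list of 10 or more genes, ordered by median log2 change, with the number measured in brackets and dashed lines at the 22.4% and 12.1% found over all genes. Regulators, receptors and stress genes fill the top, with 90% of the mitochondrial retrograde genes and of the pattern-triggered immunity genes higher, and aquaporins (68.4% lower) and phenylpropanoid enzymes (63.2% lower) lie at the bottom.

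Jasmonate, a wound hormone made from plastid lipids, had both its synthesis and its repressors among the rises. Of 13 synthesis genes, 7 rose and AOC4 fell, with a median of 2.21, and 4 fell by total counts. LOX4, a lipoxygenase at the start of the pathway, was at 3890.4, 3718 and 4075 CPM at 10 µM and at 20.3, 18.2 and 30.0 CPM at 0 µM. LOX3, OPCL1 and AOC3 had log2 changes of 6.62, 5.29 and 5.19. AOC4 was near the 2-fold limit at −1.03, and was under it without 0 µM replicate 1 (−0.998), and also with 0 µM replicate 2 (−0.81), 10 µM replicate 1 (−0.88) or the third 10 µM library (−0.99) left out. JAZ proteins repress jasmonate responses until they are degraded, and 7 of 10 JAZ genes rose with a median of 3.36. That median was 1.91 with genes that had no counts at 0 µM set to their bound, and 4 of the 10 were called in thinned libraries. JAZ5 was at 755, 683 and 742 CPM at 10 µM and at 5.72, 10.0 and 13.4 CPM at 0 µM, and JAZ10 had 42 counts at 10 µM and 0 at 0 µM, which makes it at least 11.8-fold higher. All 3 genes for the oxidation of the active hormone rose, CYP94C1 by 2.31, CYP94B3 by 1.93 and CYP94B1 by 1.46 on the log2 scale, the first by 2.91 without 0 µM replicate 3.

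For ethylene, the rises lay in the first committed step. Of 8 synthesis genes 5 rose, and all 5 encode ACC synthases. ACS2 was at 607, 502 and 681 CPM at 10 µM and at 5.08, 4.39 and 8.50 CPM at 0 µM, and ACS6 had 202 counts at 10 µM and 1 at 0 µM (ratio 169.6, interval 30.1 to 6733). EFE, an ACC oxidase that catalyses the last step and was picked out after its values were seen, was at 774, 963 and 976 CPM at 10 µM and at 939, 757 and 979 CPM at 0 µM. The 2 groups of EFE values overlapped, and no change was called (log2 change 0.02 ± 0.19 SE, edgeR, adjusted p = 0.945).

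Auxin genes were split by family. Of 14 Aux/IAA genes, which encode short-lived repressors of auxin responses, 6 rose with a median of 1.02, but 2 rose and 4 fell by total counts. IAA19 was at 130.3, 129.8 and 139 CPM at 10 µM and at 7.63, 7.52 and 5.37 CPM at 0 µM, and IAA5 had 40 counts against 0, at least 11.2-fold higher. The GH3 genes, whose enzymes conjugate auxin, rose in 4 of 5 cases, with GH3.3 at 163, 174 and 148 CPM at 10 µM and at 16.5, 12.5 and 18.8 CPM at 0 µM and BRU6 at a log2 change of 2.98. WES1 rose by 1.66 on the log2 scale and lost its call without 10 µM replicate 1 (1.29), while it was at 2.43 without 0 µM replicate 1. Of 18 SAUR genes, small proteins of cell elongation, 5 rose and 3 fell, shares of 27.8% and 16.7% beside 22.4% and 12.1% over all genes. By total counts 3 rose and 5 fell. AT1G56150 was at 879, 1165 and 1048 CPM at 10 µM and at 23.5, 16.3 and 19.7 CPM at 0 µM, whereas SAUR36 was at 5.30, 3.96 and 3.97 CPM at 10 µM and at 29.6, 21.3 and 34.9 CPM at 0 µM, so members of this family moved in opposite directions. Among 4 measured type-A response regulators, the early genes of cytokinin, ARR7 alone rose, a share of 25% that is near the 22.4% over all genes. ARR7 had 12 counts at 10 µM and 0 at 0 µM, and lost the call without 0 µM replicate 1 (edgeR, adjusted p = 0.052) or without 10 µM replicate 1 (0.061).

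For abscisic acid, NCED3, the rate-limiting enzyme of its synthesis under drought, had 323 counts at 10 µM and 2 at 0 µM (ratio 136, interval 37.2 to 1125). With the clade A phosphatases that restrain the response, 6 of 8 genes rose and HAB1 fell, though HAB1 was not called without 0 µM replicate 3 or 10 µM replicate 2. By total counts 2 of the 8 rose. HAI1 was at 26.9, 27.4 and 23.0 CPM at 10 µM and at 4.45, 1.88 and 7.60 CPM at 0 µM. Of 11 effectors of dehydration and cold, ERD7 rose and 5 fell, with a median of −0.79, and the falls numbered 3 without 0 µM replicate 3 or without 10 µM replicate 3. RD22, a dehydration marker, was at 14.9, 22.4 and 16.8 CPM at 10 µM and at 60.4, 139.8 and 112 CPM at 0 µM, while ERD7 was at 903, 639 and 704 CPM at 10 µM and at 162, 159 and 241 CPM at 0 µM. COR15A, a cold-induced protein of the plastid, fell by 2.25 on the log2 scale and by 2.94 without 10 µM replicate 1.

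Immune receptors and their signalling partners rose nearly throughout. Of 20 genes of pattern-triggered immunity 18 rose with a median of 3.6. PEPR1, the receptor of the plant's own danger peptides, was at 669.6, 601 and 579 CPM at 10 µM and at 9.85, 11.9 and 11.2 CPM at 0 µM. MPK3, a kinase downstream of such receptors, was at 151, 107 and 121 CPM at 10 µM and at 2.54, 3.13 and 3.58 CPM at 0 µM. RBOHD, the oxidase that makes extracellular superoxide, and SYP122, a syntaxin of secretion, had log2 changes of 4.82 ± 0.25 and 6.08 ± 0.29 (SE). The 2 members that were not called, picked out after their values were seen, were MPK6, at 28.2, 18.2 and 28.3 CPM at 10 µM and at 33.7, 13.2 and 28.6 CPM at 0 µM, and the flagellin receptor FLS2, with 8 counts at 10 µM and 3 at 0 µM. The values of MPK6 overlapped between the doses, and those of FLS2 were too few to show a difference.

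Members of larger receptor families were mostly higher too. Cysteine-rich receptor-like kinases rose in 21 of 27 cases with a median of 3.51, and lectin receptor kinases in 22 of 31 with a median of 3.15. CRK38 was at 89.8, 78.9 and 72.4 CPM at 10 µM and at 2.54, 0.627 and 2.68 CPM at 0 µM. CRK31 had 401 counts at 10 µM and 1 at 0 µM (ratio 337, interval 60.1 to 13330). LECRKA4.1 was at 1060.1, 862 and 1008 CPM at 10 µM and at 17.2, 17.6 and 37.6 CPM at 0 µM. Ubiquitin ligases of the PUB and ATL families, several of which restrain immune signalling, rose in 15 of 18 cases with a median of 3.73. CNI1, also named ATL31, was at 5085, 5281 and 4996 CPM at 10 µM and at 49.6, 43.9 and 76.5 CPM at 0 µM, and PUB23 had a log2 change of 5.56 ± 0.24 (SE). Of 7 calmodulin-like sensors, CML37 and CML38 rose and 5 were not called, a share of 28.6% for the rises beside 22.4% over all genes. CML38 had 18 counts at 10 µM and 0 at 0 µM, at least 5.04-fold higher.

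In the salicylic acid pathway the genes of synthesis and signalling were set apart from the defence proteins at its end. Of 12 genes 9 rose, with a median of 3.62. EDS16, the isochorismate synthase that makes most of the hormone in defence, was at 1299.8, 767 and 965 CPM at 10 µM and at 20.02, 19.4 and 27.7 CPM at 0 µM. CBP60G, the activator of that gene, was at 2305, 1814 and 2254 CPM at 10 µM and at 28.3, 15.0 and 32.6 CPM at 0 µM. EDS5, the exporter from plastids, and PAD4, a lipase-like regulator, had log2 changes of 5.26 ± 0.32 and 4.07 ± 0.31 (SE). The 3 members that were not called are the classical end-point markers PR1, BGL2 and PR5, picked out after their values were seen. PR1 was at 299, 276 and 238 CPM at 10 µM and at 369.6, 270.2 and 424 CPM at 0 µM, with overlapping groups and a log2 change of −0.39 ± 0.25 (SE, edgeR, adjusted p = 0.212). BGL2 and PR5 changed by 0.70 ± 0.34 and 0.42 ± 0.25 (SE) on the log2 scale, with adjusted p of 0.0995 and 0.186 in edgeR.

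Genes for indolic defence compounds rose in 10 of 17 cases, with a median of 1.71. By total counts, 4 of the 17 fell. PEN3, a transporter that exports antimicrobial compounds, was at 1770.2, 1508 and 2121 CPM at 10 µM and at 179.5, 171 and 225 CPM at 0 µM. AT2G44490, the myrosinase PEN2, was at 1106, 1015 and 1111 CPM at 10 µM and at 98.2, 84.6 and 128 CPM at 0 µM, and IGMT1, an indole glucosinolate methyltransferase, changed by 2.66 ± 0.20 (SE) on the log2 scale. IGMT1 and its copies IGMT2, IGMT3 and IGMT4 lie next to each other and are alike in sequence, so 3′ reads may be shared between them.

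Detoxification genes rose in part of each family. Of 12 UGT73 and UGT74 glycosyltransferases, which attach sugars to small molecules, 8 rose and 2 fell, with a median of 2.52. These shares of 66.7% and 16.7% stand beside 22.4% and 12.1% over all genes. UGT74E2, which acts on an auxin precursor, was at 549, 809 and 661 CPM at 10 µM and at 8.90, 10.7 and 14.3 CPM at 0 µM. UGT73C6 was at 1097, 2252 and 1555 CPM at 10 µM and at 17.2, 16.3 and 25.0 CPM at 0 µM. UGT74F2, an enzyme that conjugates salicylic acid, moved the other way, at 50.4, 59.4 and 47.3 CPM at 10 µM and at 162, 167 and 232 CPM at 0 µM. Of 12 tau-class glutathione transferases 6 rose and 2 fell, shares of 50% and 16.7%. GSTU12 was at 498, 612 and 595 CPM at 10 µM and at 8.58, 7.52 and 12.5 CPM at 0 µM, and GSTU9 had 146 counts against 0, at least 40.9-fold higher. Of the 2 falls, GSTU18 and GSTU14, the second had overlapping groups (4.31, 1.32 and 1.77 CPM at 10 µM, 4.13, 7.52 and 6.26 CPM at 0 µM) and was not called with 0 µM replicate 2 (−0.97) or its replicate 3 (−1.07) left out, or with replicate 2 (−0.86) or 3 (−1.02) of the 10 µM group left out, nor by DESeq2.

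Of 31 MATE transporters, which export small molecules, 14 rose and 3 fell, shares of 45.2% and 9.68% beside 22.4% and 12.1% over all genes. Without 10 µM replicate 1 the count of falls in this family was 1. By total counts 12 of the transporters rose and 10 fell. AT2G04050 was at 446, 596 and 620.1 CPM at 10 µM and at 7.31, 4.39 and 7.60 CPM at 0 µM. It belongs to a row of 5 neighbouring MATE genes from DTX1 (AT2G04040) to AT2G04100 that all rose, which are alike in sequence, so that their reads may be shared. Of 6 CYP81D cytochromes P450, CYP81D8 and CYP81D11 rose (33.3%) and CYP81D4 fell (16.7%). CYP81D8 was at 1968, 1664 and 2014 CPM at 10 µM and at 15.6, 16.9 and 18.8 CPM at 0 µM, while CYP81D4 was at 10.6, 8.91 and 9.72 CPM at 10 µM and at 28.9, 23.2 and 34.0 CPM at 0 µM. CYP81D11 changed by 3.11 on the log2 scale, and by 4.51 without 0 µM replicate 2.

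Nuclear genes known to respond to a fault in mitochondria rose in 9 of 10 cases, with a median of 5.87 (5.26 with bounds). AOX1A, the alternative oxidase that lets electrons bypass part of the respiratory chain, was at 2637, 2660.4 and 3404 CPM at 10 µM and at 56.9, 37.0 and 56.4 CPM at 0 µM. Its relative AOX1D was at 1673, 1792 and 1696 CPM at 10 µM and at 23.5, 16.3 and 40.2 CPM at 0 µM. DIC2, a dicarboxylate carrier of the inner membrane, was at 7582, 6259 and 6949 CPM at 10 µM and at 21.9, 27.6 and 37.1 CPM at 0 µM. BCS1, an AAA protein of mitochondria, had a log2 change of 7.43 ± 0.25 (SE). The member that was not called was NAC017, the membrane-bound factor that activates this response, with 10 counts at 10 µM and 3 at 0 µM. Of the transcripts of the mitochondrial genome, 19 were measured. None of them was called by edgeR or by DESeq2, with 1 higher and 1 lower at an unadjusted p under 0.05 in edgeR, and 1 was called higher without 0 µM replicate 3 and 4 were called lower by total counts.

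Of 60 heat shock proteins and factors 14 rose and 9 fell, shares of 23.3% and 15% that are near the 22.4% and 12.1% over all genes. The median of 0.03 changed sign under total counts (−0.83), with either filter on low counts (−0.18 and −0.21), in thinned libraries (−0.16) and without 10 µM replicate 2 (−0.06) or 10 µM replicate 3 (−0.01). The rises were 9 without 0 µM replicate 1 or without 10 µM replicate 1, and the falls were 5 without 0 µM replicate 3, while 8 rose and 26 fell by total counts. mtHsc70-1, the mitochondrial chaperone, was at 1409.8, 1885 and 1770.1 CPM at 10 µM and at 97.6, 117 and 111 CPM at 0 µM. HSP70, a cytosolic chaperone, was at 58.3, 48.2 and 27.8 CPM at 10 µM and at 133, 119 and 209.8 CPM at 0 µM. HSFB2A, a class B heat shock factor, rose with a log2 change of 3.11 ± 0.20 (SE), and 1 member of the rises, TTA1, is known as a PHD finger protein and carries a heat shock product name in the annotation.

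In the endoplasmic reticulum, 7 of 14 genes of the unfolded protein response fell and 2 rose, with a median of −1.01. BIP1, the chaperone of the lumen, was at 172, 139 and 125 CPM at 10 µM and at 369, 553 and 679 CPM at 0 µM. The calreticulins CRT1a and CRT1b fell by 1.77 and 1.58 on the log2 scale, and SHD, the HSP90 of this compartment, by 1.64. BZIP60, the transcription factor that activates these genes, rose, at 89.5, 93.1 and 99.8 CPM at 10 µM and at 0.953, 1.88 and 1.34 CPM at 0 µM. BIP1, CRT1a and CRT1b fell while BZIP60 rose. CRT3, the other rise, was at the 2-fold limit with 1.01, and was under it with replicate 1 (0.94) or 2 (0.93) of the 0 µM group or replicate 2 of the 10 µM group (0.99) left out.

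Aquaporins of the plasma membrane (PIP) and the vacuole (TIP) fell in 13 of 19 cases, with a median of −1.37. PIP2B was at 28.2, 26.1 and 29.1 CPM at 10 µM and at 287, 300.3 and 341 CPM at 0 µM, a log2 change of −3.48 ± 0.19 (SE, edgeR, adjusted p = 2.1e-12). PIP1A was at 90.8, 81.5 and 75.1 CPM at 10 µM and at 551, 568 and 717 CPM at 0 µM. TIP2 was at 315, 417 and 356 CPM at 10 µM and at 3039, 2238 and 2195 CPM at 0 µM. The groups of each of these genes lay well apart, and PIP1B followed with −2.26 ± 0.17 (SE). The PIP genes are alike in their coding regions, though reads here come from near the 3′ ends.

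Enzymes that make phenylpropanoids, the precursors of lignin and flavonoids, fell in 12 of 19 cases with a median of −1.26. CYP98A3, a hydroxylase of lignin precursors, was at 10.3, 12.5 and 7.07 CPM at 10 µM and at 111, 106 and 136 CPM at 0 µM, a log2 change of −3.54 ± 0.23 (SE, edgeR, adjusted p = 1.8e-11). HCT, which supplies its substrate, was at 40.1, 59.4 and 53.0 CPM at 10 µM and at 199.6, 238 and 316 CPM at 0 µM, and TT4, the chalcone synthase of flavonoids, fell by 1.81 on the log2 scale. CCR2, a cinnamoyl-CoA reductase known from defence rather than from wood, was the member that rose, at 1999.9, 1959.5 and 2154 CPM at 10 µM and at 21.3, 24.4 and 25.5 CPM at 0 µM. PAL1, the entry enzyme, was picked out after its values were seen and was at 85.5, 60.4 and 83.0 CPM at 10 µM and at 57.2, 87.1 and 90.3 CPM at 0 µM, with overlapping groups and no call. The count of rises was 2 without 0 µM replicate 3 or without 10 µM replicate 2.

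Genes for photosynthesis lay moderately lower. Of 44 nuclear genes of the photosystems and antennae 19 fell, a share of 43.2% beside 12.1% over all genes, with a median of −0.99. At an unadjusted p under 0.05 in edgeR 39 of the 44 were lower, as were 2998 of all 12905 genes. FED A, the ferredoxin that takes electrons from photosystem I, was at 137, 253 and 178 CPM at 10 µM and at 791, 851 and 616 CPM at 0 µM. PSAD-1, a photosystem I subunit, was at 341, 666 and 481 CPM at 10 µM and at 1370.5, 1612 and 1594 CPM at 0 µM. The count of falls was 12 without 0 µM replicate 2 and 12 with scaling to reference genes, against 26 without 10 µM replicate 2 and 42 by total counts. Of 21 genes of Rubisco's small subunit and the Calvin cycle 10 fell (20 by total counts), with a median of −0.98, led by the regulator CP12-2 at 49.1, 146 and 85.7 CPM at 10 µM and at 385, 516 and 476 CPM at 0 µM. Of 18 genes of chlorophyll synthesis, AT1G74470, a geranylgeranyl reductase, and CHLM, a methyltransferase, fell by 1.22 and 1.17 on the log2 scale, and their share of 11.1% is close to the 12.1% over all genes. By total counts 12 of the 18 fell. Of 5 mesophyll markers 2 fell (40%), CAB1 among them with a log2 change of −1.15, and the highest of the 5 changes was 0.58. None of the 5 was called with scaling to reference genes or without 0 µM replicate 2. The summed level of the 5 was 10270, 13780 and 12970 CPM at 10 µM and 16910, 18310 and 16860 CPM at 0 µM. RBCS1A, 1 of them, was at 7229, 8778 and 8104 CPM at 10 µM and at 9809.7, 10426 and 9637 CPM at 0 µM, a difference that was not called. In bulk tissue, fewer cells of a type and less RNA of these genes per cell cannot be told apart.

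Of 55 transcripts of the plastid genome 4 were called lower, a share of 7.27% that is below the 12.1% over all genes. Each of these calls rested on 1 library. ATCG01210 was at 0.663, 0 and 0 CPM at 10 µM and at 729.9, 0.627 and 0 CPM at 0 µM, and ATCG00600 was at 0 in the 10 µM libraries and at 194, 0 and 0 CPM at 0 µM. Without 0 µM replicate 1 the count of plastid transcripts called was 1, without 10 µM replicate 2 it was 2, and the median over the 55 was −0.29. DESeq2 and the filterByExpr filter of edgeR gave 0 calls, and total counts gave 17. The reads were made from polyadenylated ends, which most transcripts of organelles lack.

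Cytosolic ribosomal protein genes fell in 13 of 38 cases, with a median of −0.92. AT4G02230 was at 108, 167 and 123 CPM at 10 µM and at 368, 416 and 422 CPM at 0 µM, and AT5G23900 was at 84.5, 123 and 98.5 CPM at 10 µM and at 216, 277 and 240.2 CPM at 0 µM. The count was 8 without 0 µM replicate 2, 6 without 10 µM replicate 1 and 7 with scaling to reference genes, against 31 by total counts. Of 26 subunits of the proteasome, PAD2 and PAF2 fell, by 1.45 and 1.13 on the log2 scale, a share of 7.69% that is below the 12.1% over all genes. The count was 1 without 0 µM replicate 3, 4 without 10 µM replicate 2 and 21 by total counts. Of 26 genes annotated as nucleolar or rRNA-processing 4 rose and 2 fell, shares of 15.4% and 7.69% that are below the 22.4% and 12.1% over all genes. The median of 0.09 became −0.77 by total counts, where 1 rose and 11 fell. The count of falls was 1 with replicate 1 of either group, or replicate 2 of the 0 µM group, left out. The nucleolin NUC-L1, picked out after its values were seen, was at 249, 330.1 and 334 CPM at 10 µM and at 212, 319.7 and 269.7 CPM at 0 µM, with overlapping groups. One of the rises, TRM27 (log2 change 1.56), is known as a TON1-recruiting protein and not as a nucleolar factor.

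Histone genes rose in 20 of 40 cases and fell in 2, with a median of 1.14. By total counts 7 rose and 4 fell. AT3G27360, a histone H3, was at 256, 195 and 157 CPM at 10 µM and at 26.4, 38.9 and 21.5 CPM at 0 µM, and AT5G59970, a histone H4, was at 298, 268 and 246 CPM at 10 µM and at 54.7, 76.5 and 59.0 CPM at 0 µM. HTA9, an H2A.Z variant that is made outside of DNA replication, fell, at 106, 118 and 99.4 CPM at 10 µM and at 320.0, 298 and 309 CPM at 0 µM. HTA12, the other fall, was at 8.62, 9.57 and 2.21 CPM at 10 µM and was not called without 10 µM replicate 3 (−0.75). Copies of a histone class are alike in sequence, so their reads may be shared. Of 5 cell cycle genes none was called by edgeR or by DESeq2, and 0 had an unadjusted p under 0.05 in edgeR. By total counts 1 of them fell. Their summed level was only 10.61, 12.55 and 14.57 CPM at 10 µM and 16.84, 18.81 and 8.05 CPM at 0 µM. The filterByExpr filter of edgeR kept 2 of the 5, so changes in these genes could be missed.

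Of 21 XTH genes, whose enzymes cut and rejoin the wall polymer xyloglucan, 5 rose and 5 fell, which is 23.8% each way beside 22.4% and 12.1% over all genes. The falls were 2 without 0 µM replicate 2 or with scaling to reference genes, 3 in thinned libraries and 9 by total counts. XTR6 was at 2724, 3101 and 3408 CPM at 10 µM and at 55.3, 39.5 and 68.0 CPM at 0 µM, and TCH4, a touch-induced member, was at 61.0, 58.8 and 47.7 CPM at 10 µM and at 0.636, 1.88 and 1.34 CPM at 0 µM. XTH7 was at 47.4, 43.9 and 43.7 CPM at 10 µM and at 140.4, 196 and 156 CPM at 0 µM. Of 22 expansins, which loosen walls, 7 rose and 4 fell (31.8% and 18.2%), among them EXLA3 at a log2 change of 7.16 ± 0.27 and EXLB1 at −1.31 ± 0.19 (SE). By total counts 3 expansins rose and 9 fell, and in thinned libraries 1 fell. Of 42 lipid-transfer proteins 4 rose and 12 fell (9.52% and 28.6%), and 7 fell without 0 µM replicate 2 and 29 by total counts. LTP5 was at 684, 954 and 874 CPM at 10 µM and at 2786, 3217 and 3151 CPM at 0 µM, and LTP2 fell by 2.62 on the log2 scale. Of 21 actins and tubulins TUB2, TUB6 and ACT8 fell (14.3%) and ACT11 rose (4.76%), with 1 fall without 0 µM replicate 1, 5 without 0 µM replicate 3 and 17 by total counts. ACT8, also a reference gene, lost its call without 0 µM replicate 1 (−0.42) or without 10 µM replicate 3 (−1.08, edgeR, adjusted p = 0.0983).

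Of 18 clock genes BOA, TCP11 (AT5G08330) and FKF1 rose and LCL1 and PRR3 fell, shares of 16.7% and 11.1% beside 22.4% and 12.1% over all genes. By total counts 1 clock gene rose and 10 fell. BOA was at 101, 74.0 and 102 CPM at 10 µM and at 32.1, 16.9 and 17.9 CPM at 0 µM, and LCL1 was at 21.5, 18.8 and 13.7 CPM at 10 µM and at 50.2, 33.9 and 62.6 CPM at 0 µM. FKF1 was under 2-fold without 0 µM replicate 2 (0.85) or 10 µM replicate 1 (0.88), and PRR3 was not called without 0 µM replicate 2 (edgeR, adjusted p = 0.053) or 10 µM replicate 1 (0.087). Of 14 hypoxia genes 4 rose and 3 fell (28.6% and 21.4%), with ERF71 at 384, 391 and 360.4 CPM at 10 µM and at 2.86, 4.39 and 6.26 CPM at 0 µM and PDC2, a fermentation enzyme, at 29.5, 27.7 and 27.8 CPM at 10 µM and at 73.7, 78.4 and 114 CPM at 0 µM. The falls in that list were 5 without 0 µM replicate 1, 6 without 10 µM replicate 1 and 8 by total counts. Of 12 iron genes PYE, a regulator of iron deficiency, and AT1G21140, a vacuolar iron transporter-like protein, rose by 1.71 and 1.44 on the log2 scale, and AT3G25190, AT1G76800 and the phloem transporter OPT3 fell by 3.71, 1.65 and 1.04, the last of which was under 2-fold without 0 µM replicate 3 (−0.84) and with replicate 1 (−0.94) or 3 (−0.95) of the 10 µM group left out. The shares of the iron list were 16.7% higher and 25% lower, and by total counts 0 iron genes rose and 4 fell.

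The study named marker genes for single kinds of reactive oxygen. All 4 of its measured singlet oxygen markers rose, and since the study chose them, they are not independent evidence. AT5G64870, a flotillin-like protein, was at 2072, 1505 and 1957 CPM at 10 µM and at 6.04, 5.02 and 13.0 CPM at 0 µM. BAP1, an inhibitor of cell death, was at 3734, 3872 and 3527 CPM at 10 µM and at 44.2, 33.9 and 87.2 CPM at 0 µM. AT5G13200 had a log2 change of 4.05 ± 0.26 (SE), and AT3G01830, a calcium-binding protein, had 131 counts at 10 µM and 1 at 0 µM. Of the study's superoxide markers 2 were tested here. The ferritin FER1 was at 249.6, 249 and 287 CPM at 10 µM and at 314, 271 and 246 CPM at 0 µM, with overlapping groups and no call (log2 change −0.08 ± 0.19 SE, edgeR, adjusted p = 0.752, and above 0 with scaling to reference genes, 0.10, or without 0 µM replicate 1, 0.06). AT4G21870, a small heat shock protein, fell, at 1.33, 0.990 and 1.77 CPM at 10 µM and at 5.40, 6.27 and 4.03 CPM at 0 µM.

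Markers of cell types were checked for the labelled whole seedlings, and both leaf and root markers were present. Of 5 measured markers of the root endodermis 3 fell. CASP1, a protein of the Casparian strip, was at 3.31, 4.29 and 5.30 CPM at 10 µM and at 28.3, 23.2 and 19.2 CPM at 0 µM. CASP2 was at 0, 0.660 and 1.32 CPM at 10 µM and at 11.8, 12.5 and 6.26 CPM at 0 µM. ESB1, which the same cells need to build that barrier, was at 13.3, 16.2 and 17.2 CPM at 10 µM and at 26.1, 34.5 and 21.0 CPM at 0 µM, and did not pass 2-fold. MYB36, a regulator of this cell type picked out after its values were seen, had 11 counts at 10 µM and 1 at 0 µM and was not called (edgeR, adjusted p = 0.0532), while with scaling to reference genes 1 of the 5 markers was called higher. The summed level of the endodermis markers was 17.9, 22.45 and 26.5 CPM at 10 µM and 69.59, 78.99 and 49.19 CPM at 0 µM. Of 4 root hair markers RHD6 rose and PRP3 fell, 25% each way beside 22.4% and 12.1% over all genes. The sums of the 4 were 26.19, 19.15 and 20.32 CPM at 10 µM and 57.52, 81.5 and 52.32 CPM at 0 µM. RHD6 lost its call without 0 µM replicate 1 (edgeR, adjusted p = 0.1005) and also with 10 µM replicate 1 (0.0647) or its replicate 3 (0.0551) left out. The sums for the phloem (291, 232.8 and 298.1 CPM at 10 µM, 250.7, 205 and 232.6 CPM at 0 µM) overlapped, and those for guard cells were 59.34, 63.06 and 60.95 CPM at 10 µM and 37.18, 38.87 and 46.51 CPM at 0 µM. None of the 2 phloem and 3 guard cell markers was called, though 1 phloem marker was called lower by total counts. The part of such markers in the other results was not tested.

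The place of 10 µM among the doses was seen by setting it against its neighbours, and these comparisons share the 10 µM libraries with the one above. Against 1 µM, 1579 genes were higher at 10 µM and 643 lower, 12.2% and 4.98% of all. At 100 against 10 µM, 282 were higher and 320 lower, 2.19% and 2.48%, a total of 602 (4.66%) that was 930 without 100 µM replicate 1. Among AP2/ERF factors 41 were higher and 6 lower at 10 against 1 µM, and 24 were higher and 6 lower at 100 against 10 µM. AT5G21960 averaged 2.49, 3.48, 649 and 2256 CPM at 0, 1, 10 and 100 µM, so most of its change lay between 1 and 10 µM, where the log2 change was 7.53 ± 0.25 (SE, edgeR, adjusted p = 1.5e-14). ORA47, a factor that activates jasmonate synthesis genes, averaged 2.24, 3.67, 555 and 1811 CPM at these doses. ERF13 averaged 24.3, 239, 8667 and 19143 CPM. CBF1, a factor of cold tolerance, was among the largest rises at 100 against 10 µM (log2 change 3.12 ± 0.27 SE, edgeR, adjusted p = 9.1e-07), with 6.25 CPM at 10 µM and 55.6 CPM at 100 µM.

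Several detoxification genes and genes of the mitochondrial response had another profile, with less than a 2-fold difference at 10 against 1 µM and lower levels at 100 µM. UGT74E2 changed by 0.02 ± 0.33 (SE) on the log2 scale at 10 against 1 µM, which was not called, and by −2.93 ± 0.36 (SE, edgeR, adjusted p = 1.9e-05) at 100 against 10 µM. AT2G04070, a MATE transporter, changed by −0.51 ± 0.18 and −2.96 ± 0.21 (SE) in these comparisons, and AOX1D by 0.08 ± 0.23 and −1.45 ± 0.23 (SE). CYP81D8 averaged 17.1, 1443, 1882 and 701 CPM at 0, 1, 10 and 100 µM. Of the 12 UGT73 and UGT74 genes, 4 were lower at 10 against 1 µM and 5 at 100 against 10 µM. Over the 10 mitochondrial retrograde genes the median log2 change was 0.05 at 10 against 1 µM, with 2 higher, and −1.23 at 100 against 10 µM, with 4 lower. Over the 14 hypoxia genes 7 were lower at 100 against 10 µM. AT2G36770, a glycosyltransferase, was among the largest falls there, with 243 ± 66.5 CPM at 10 µM and 28.6 CPM at 100 µM (mean ± SD, n = 3). AT5G43450, an oxygenase, was another, and its value rests on 1 library, with 1002, 82.9 and 35.3 CPM at 10 µM. At 10 against 0 µM, with 5.08, 4.39 and 13.4 CPM at 0 µM, its log2 change was 5.60, but 2.95 without 10 µM replicate 1 and 6.30 without 0 µM replicate 3.

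**Figure D5:**
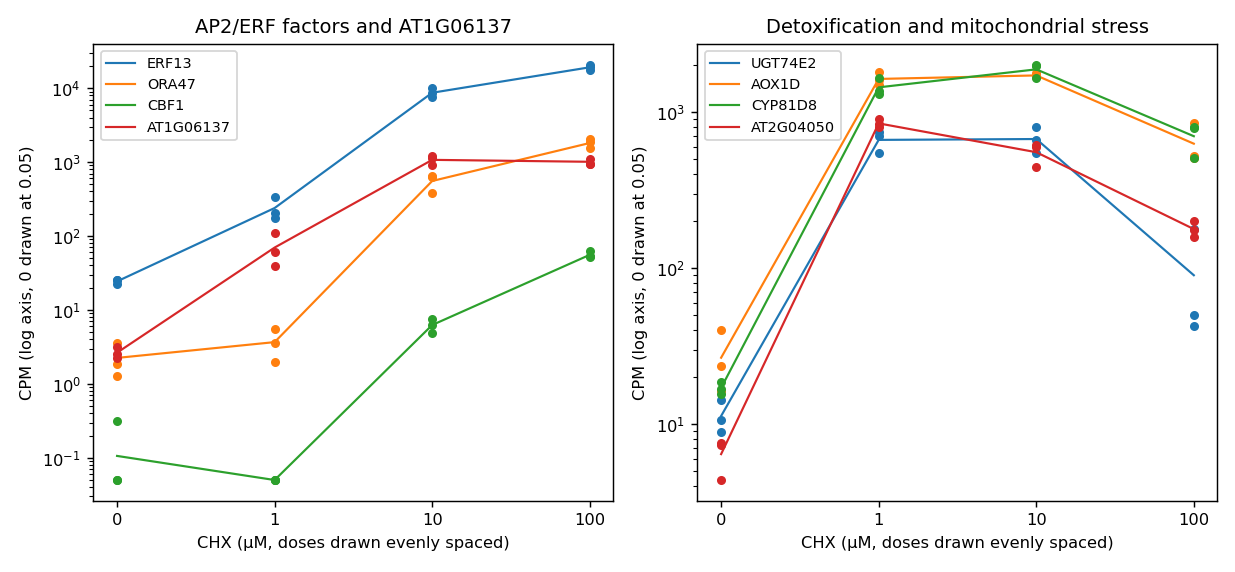
Points are single libraries and lines join the means (CPM, log axis, 0 drawn at 0.05) at 0, 1, 10 and 100 µM, drawn evenly spaced, for ERF13, ORA47, CBF1 and AT1G06137 (left) and for UGT74E2, AOX1D, CYP81D8 and AT2G04050 (right). The genes on the left climb between 1 and 10 µM, and ERF13, ORA47 and CBF1 again at 100 µM, whereas those on the right differ by less than 2-fold between 1 and 10 µM and are lower at 100 µM.

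Gene structure and place, which the test did not use, were also read for the genes that rose and fell, as a description with no test. A single exon was found for 24.7% of genes that rose, 20.6% of those that fell and 15.1% of all genes tested, and the median number of exons was 3, 3 and 4. The median coding length was 1134 bases for genes that rose, 942 for those that fell and 1170 for all. Of the genes that rose, 50.7% had a neighbour among the tested genes that also rose, against 39.3% of all tested genes. Of those that fell, 29.2% had a neighbour that fell, against 22.5% of all. There were 26 runs of 5 or more consecutive tested genes that all rose. The longest had 8 genes, among them the run from AT1G72880 to AT1G72950, which contains TIR, named for its receptor domain. Another, of 7 genes from AT4G23170 to AT4G23220, holds the receptor kinases CRK10 to CRK14, and a run of 5 holds the AP2/ERF factors ESE1, TDR1 and ERF1 beside MYB15 and XBAT35. Members of such tandem families are alike in sequence, so reads may be shared between copies. The share of genes that rose was 21.4 to 24.1% on the 5 nuclear chromosomes and that of genes that fell 11.4 to 13.5%.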

How the data were processed

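Whole wild-type seedlings were profiled by bulk MARS-seq, 3 libraries per CHX dose. Per the labels and the study's methods, the authors trimmed reads with cutadapt 1.8.3 after bcl2fastq 2.17.1.14, aligned them with STAR and counted 3′ reads per Araport11 gene with HTSeq, without removing PCR copies. The deposited table holds whole-number counts, and further columns of it hold the same counts divided by 1 factor per library, a signal used here only to check that. Columns of regularized log2 values, which the authors made with DESeq2 and deposited, were not used. No gene below 6 counts in its highest library was found in the deposited table. The authors' own comparison columns were not used. The study's list of records and the labels name different treatments for this series, and the labels were followed.

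Counts were fitted here in R 4.3.3 with edgeR 4.0.16 (quasi-likelihood test, TMM scaling, a mean per dose, all 12 libraries) and Benjamini-Hochberg adjustment over 12905 genes. A gene was called at an adjusted p under 0.05 and at least a 2-fold change. The test itself gives no SE. Each SE was worked out here from edgeR's fit, as the unshrunk log2 change over the square root of the F statistic. The log2 changes printed are those of edgeR's test, which are slightly shrunk. Levels are CPM with TMM scaling, and a group at 0 was set to a floor of 3 counts over its 3 libraries. Alternatives were DESeq2 1.42.0, other scalings, filters, thresholds, libraries thinned to 1 depth, a replicate block and leaving out each library. The fit was also run on simulated counts in which few genes changed, which does not test the scaling of these libraries. Genes were matched to the RefSeq annotation of TAIR10.1 by locus tag.

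The genes named were, among called genes with groups that do not overlap, more than 3 counts in both and at least 10 CPM in the higher one, the 12 largest rises and 12 largest falls, then the 5 most abundant at the floor at 0 µM, up to 4 called members per list and direction with the smallest adjusted p, the study's markers, and the 3 largest rises and falls against each neighbouring dose. Not all are described, and other genes were chosen after their values were seen. The members and lists were chosen with earlier results of these data known. Some members of the gene lists are counted but not reported here by name.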

Additional observations from a re-analysis of the deposited data

How the results depend on the processing

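By total counts 1879 genes rose and 4935 fell at 10 against 0 µM, and 3400 were called at 10 against 1 µM. With reference genes 944 genes were called at 100 against 10 µM. Thinned libraries gave 388 calls there, an adjusted p under 0.01 gave 398, and leaving out libraries gave 425 to 930. At 4-fold, 331 genes fell, 800 were called at 10 against 1 µM and 111 at 100 against 10 µM. Leaving out single libraries gave 2684 to 2864 rises and 1360 to 1583 falls at 10 against 0 µM and 1799 to 2321 calls at 10 against 1 µM. FER1, which was not called, had a log2 change of 0.0965 with reference genes and of −0.1535 to 0.0641 with single libraries left out, the last without 0 µM replicate 1. The cause of these shifts was not tested.

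Deviations of same-numbered 10 and 0 µM libraries correlated at 0.0542, 0.1432 and 0.0155, and those of other pairs at −0.1313 to 0.088. For 10 µM replicate 3 the best match had another number. With 3 libraries per dose, such low values cannot decide whether the replicate numbers pair the libraries. A fit with the replicate block called 2908 rises and 1568 falls, and 2281 and 670 genes against 1 and 100 µM, and no named gene lost its call. With DESeq2 9 of 278 named genes lost the call, with total counts 27 and with reference genes 22. In libraries thinned to 1 depth 26 lost it.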
